A study of Mus musculus with 162 samples.

Results

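The genes described here are 7 mouse genes through which liver cells sense and route glucose and fructose, namely Gckr, Pklr, Mlxipl, Khk, Pfkfb1, Pfkfb3 and Txnip. They were chosen by name for their known roles, and are 7 of the 53686 rows of the count table. mRNA-seq was done on 9 organs of 18 male C57Bl/6J wild-type mice of 8 to 9 weeks, with 3 animals for each of 6 feeding states, 1 library for each organ and animal. The animals were fed ad libitum (0 h) or had been without food for 2, 8, 12, 18 or 22 h, and all were killed at one time of day, early in the dark phase, when mice normally begin to eat. Food was therefore taken away in the light phase for 2, 8 and 12 h and in the dark phase before it for 18 and 22 h, so the length of the fast and the phase in which it began move together. No animal carried a transgene or received a drug. The organs were olfactory bulb (OB), the telencephalon and diencephalon (BRN), cerebellum (CBL), brainstem (BST), stomach (STM), liver (LIV), interscapular brown fat (iBAT), perigonadal white fat (pgWAT) and posterior subcutaneous white fat (psWAT).

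After a meal, glucose and fructose reach the liver through the portal vein. Gckr encodes a regulatory protein of hepatocytes that restrains the trapping of glucose and lets go when fructose 1-phosphate rises. Fructose is trapped by ketohexokinase, encoded by Khk. The level of fructose 2,6-bisphosphate, which speeds glycolysis and slows gluconeogenesis, is set by the bifunctional enzymes of the Pfkfb family, of which Pfkfb1 encodes the liver and muscle enzyme and Pfkfb3 an isoenzyme that strongly favours synthesis. Mlxipl encodes ChREBP, a transcription factor that is activated by sugar phosphates and binds DNA with its partner Mlx at carbohydrate response elements. Pklr, which encodes the liver and red cell pyruvate kinase at the end of glycolysis, is the classical target of ChREBP, and Txnip, which encodes an alpha-arrestin that restrains glucose uptake, is another gene known to respond to glucose through this family of factors.

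Since ChREBP and Mlx bind a pair of E-box-like motifs, the promoters were searched for the carbohydrate response element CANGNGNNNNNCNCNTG and for the full E-box CACGTG on both strands, in the 250 bases before and 50 bases after each RefSeq start of GRCm38.p6. All 7 genes had an entry. The element was present in 0.557% of 32851 promoter windows and, among these genes, in 1 window of Pklr, beginning 170 bases before the start. The windows below show that promoter, with the element in capitals, and the 3 promoters that held an E-box, also in capitals.

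Pklr, downstream start, plus strand, chr3:89136373-89136672: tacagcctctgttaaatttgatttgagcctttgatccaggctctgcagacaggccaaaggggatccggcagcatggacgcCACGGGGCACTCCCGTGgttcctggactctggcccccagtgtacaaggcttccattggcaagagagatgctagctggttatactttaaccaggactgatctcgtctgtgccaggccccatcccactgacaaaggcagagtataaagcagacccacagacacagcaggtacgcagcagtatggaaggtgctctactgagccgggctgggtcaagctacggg

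Mlxipl, upstream start, plus strand, chr5:135089640-135089939: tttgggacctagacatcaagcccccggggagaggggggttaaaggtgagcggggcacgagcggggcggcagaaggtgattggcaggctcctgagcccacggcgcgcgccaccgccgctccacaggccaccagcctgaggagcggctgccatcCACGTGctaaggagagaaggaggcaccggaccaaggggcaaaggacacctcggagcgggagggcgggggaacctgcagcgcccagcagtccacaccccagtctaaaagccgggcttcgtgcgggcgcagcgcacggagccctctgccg

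Khk, plus strand, chr5:30921309-30921608: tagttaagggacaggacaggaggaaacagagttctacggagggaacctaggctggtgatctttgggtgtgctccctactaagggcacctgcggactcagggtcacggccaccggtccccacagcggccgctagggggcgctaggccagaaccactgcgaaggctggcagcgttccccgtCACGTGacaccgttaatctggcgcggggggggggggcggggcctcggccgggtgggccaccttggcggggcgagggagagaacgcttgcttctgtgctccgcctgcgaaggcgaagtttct

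Pfkfb3, minus strand, chr2:11502041-11502340: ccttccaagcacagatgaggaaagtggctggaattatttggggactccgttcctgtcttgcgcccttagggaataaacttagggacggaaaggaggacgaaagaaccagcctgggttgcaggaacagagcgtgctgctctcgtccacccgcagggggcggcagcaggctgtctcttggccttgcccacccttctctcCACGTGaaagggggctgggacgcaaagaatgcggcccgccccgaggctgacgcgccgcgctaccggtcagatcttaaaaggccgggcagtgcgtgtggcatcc

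The E-box was present in 2349 of the 32851 windows (7.15%). It lay at bases 98 to 93 before the start in Mlxipl, 71 to 66 in Khk and 53 to 48 in Pfkfb3. The other windows of Mlxipl, Pfkfb3 and Pklr and those of Gckr, Txnip and Pfkfb1 held neither pattern, which says only that these letters are not in these windows. A match is a description of the sequence and no measure of binding.

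In the GRCm38 annotation (Gencode M21), Khk (chr5:30921431-30931248), Gckr (chr5:31297443-31327314) and Mlxipl (chr5:135089890-135138382) lie on the plus strand of chromosome 5, Pklr (chr3:89136142-89146784) and Txnip (chr3:96557957-96561883) on the plus strand of chromosome 3, Pfkfb1 (chrX:150588229-150643878) on the plus strand of chromosome X and Pfkfb3 (chr2:11471433-11554077) on the minus strand of chromosome 2. Reads were counted over the exons of each gene, so the liver and red cell transcripts of Pklr and the transcripts for the A and C forms of ketohexokinase are not separated. LIV libraries held 6959200 to 12451777 counted reads (median 8642327), and the floor of 3 counts lay at 0.25 to 0.446 CPM there, where CPM is a gene's count divided by the library's total and scaled to the same total in every library. The hepatocyte marker list had all 10 of 10 genes above that floor in LIV, with a summed level of 78100 to 105000 CPM. The 0 h and 2 h LIV libraries were sequenced in 1 lane and the 12, 18 and 22 h libraries in another, with the 8 h group split 2 to 1. Between times of different lanes, lane and fasting time thus cannot be told apart except through the 8 h group. In whole-organ samples, fewer cells of a type and less RNA per cell cannot be told apart either.

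Per kilobase of exon, and as the mean over the 18 LIV libraries, Khk stood highest of the 7 genes in LIV with 267 CPM per kb, followed by Mlxipl with 134.02, Pklr with 67.5, Gckr with 61.8, Pfkfb1 with 18.6, Txnip with 13.1 and Pfkfb3 with 4.41. On the same scale Mlx stood at 20.9. All values from here on are CPM scaled by TMM within an organ (normalized CPM, a level), and differences between groups are log2 fold changes (log2FC) from edgeR's quasi-likelihood test with Benjamini-Hochberg adjustment over all genes tested in the organ. A gene was called at an adjusted p under 0.05. The 3 animals of a group are the replicates.

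The first question was whether the sugar-sensing genes of the liver differ between fed mice and mice in the late fast (18 and 22 h, 6 animals). None of the 7 genes was called (0 of 7, with 1 at an unadjusted p under 0.05 and 0 called by DESeq2), where 10.6% of the 14023 genes tested in LIV were. Over both late times, the log2FC was -0.069 for Gckr, 0.036 for Mlxipl, -0.066 for Pfkfb1, 0.10 for Pfkfb3 and 0.088 for Txnip. With the sequencing lane as a term, those of Gckr, Pfkfb3 and Txnip had the opposite sign and lay further from 0, as given in the last section. The gene furthest from 0 h was Pklr, at -0.50 ± 0.19 (SE) with an adjusted p of 0.109. Khk stood at -0.22 with an adjusted p of 0.322. The livers at 0 h were not alike in other genes. Pck1 measured 5013, 5077 and 563 normalized CPM in replicates 1, 2 and 3 at 0 h, against 3788 to 8500 in the late fast. Fasn measured 590.9, 614.1 and 1187 in the same replicates at 0 h. Whether these animals differed in recent feeding was not tested.

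In the daytime fast (8 and 12 h), Mlxipl was higher than at 0 h, with a log2FC of 0.51 ± 0.16 (SE) and an adjusted p of 0.0429, which is 1.42-fold. It was the 1 called gene of the 7, where 8.89% of all genes tested were called. From the daytime to the late fast, Mlxipl fell by 0.47 ± 0.12 (adjusted p = 0.0453) and Pklr by 0.86 ± 0.16 (adjusted p = 0.0211), so that 2 of the 7 genes were called against 2.70% of all genes tested. Over the 6 time points tested jointly, Gckr (adjusted p = 0.030), Pklr (0.0086) and Mlxipl (0.036) were called, which is 3 of 7 against 16.0% of all genes. The plot of the LIV values by hours fasted shows each library.

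**Figure D1:**
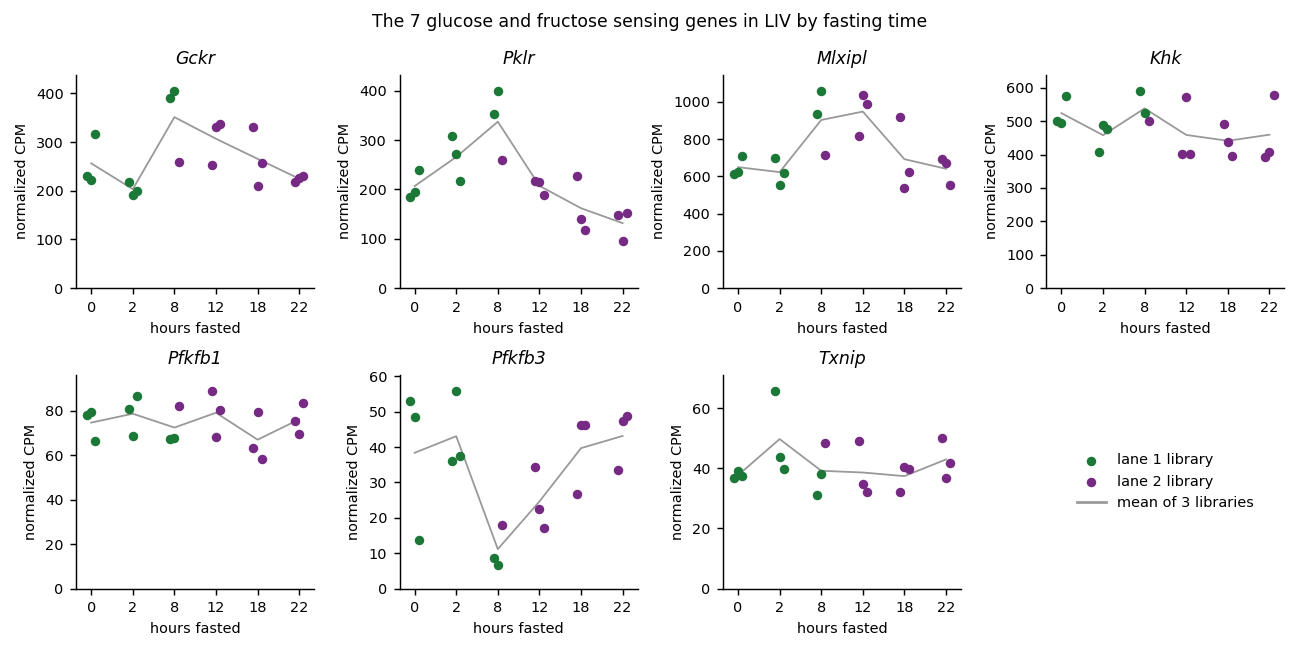
Normalized CPM (vertical axis, from 0) of each of the 7 genes in the 18 LIV libraries against hours fasted (horizontal axis, time points equally spaced), 1 point per library coloured by sequencing lane, with a line through the means of 3 libraries. Mlxipl and Gckr are highest at 8 and 12 h, Pfkfb3 is lowest there, Pklr peaks at 8 h and is lowest at 22 h, and Khk, Pfkfb1 and Txnip show no call in edgeR at any time.

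Mlxipl measured 614.6, 622.3 and 710.3 normalized CPM in the 3 LIV libraries at 0 h and 697.3, 554.7 and 615.6 at 2 h. It measured 933.3, 1057.5 and 715.5 at 8 h and 818.5, 1035.1 and 987.5 at 12 h. The 6 daytime libraries thus lay above all 3 libraries at 0 h, although 8 h replicate 3 exceeded the highest of them by little. At 18 h the values were 919.5, 535.5 and 620.7, and at 22 h 694.9, 673.6 and 552.8, where 18 h replicate 1 lay above the libraries at 0 and 2 h, 18 h replicate 2 and 22 h replicate 3 just below them and the other 3 within their range. Taken alone, 12 h was called (0.55, adjusted p = 0.0475) where 11.9% of genes were. The daytime call was lost without 0 h replicate 1 or 2, 2 h replicate 3, 8 h replicate 1 or 2, 12 h replicate 2 or 3 or 22 h replicate 1 or 2, each left out alone, at adjusted p of 0.0509 to 0.173. The fall after it stayed called only without 0 h replicate 3, 2 h replicate 1, 8 h replicate 3, 12 h replicate 1 or 18 h replicate 1, and without any other single library its adjusted p was 0.0507 to 0.133, while both directions held throughout.

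Pklr measured 184.8, 195.3 and 240.5 normalized CPM at 0 h, 308.6, 272.5 and 216.5 at 2 h and 351.9, 399.5 and 260.4 at 8 h. It measured 218.0, 216.1 and 188.2 at 12 h, 228.1, 139.3 and 118.9 at 18 h and 148.2, 95.9 and 151.5 at 22 h. The 3 libraries at 8 h lay above all at 0 h and the 3 at 22 h below all of them, but edgeR called neither time point alone (8 h 0.71, adjusted p = 0.141, against 0.471% of genes called, and 22 h -0.65, adjusted p = 0.120, against 4.15%), and DESeq2 called 8 h (adjusted p = 0.0494, with 3.96% of genes called). The call between the daytime and the late fast was lost, at adjusted p of 0.0506 to 0.0635, without 8 h replicate 1 or 2, 18 h replicate 2 or 22 h replicate 2. When 0 h and 2 h were pooled as the fed state, the late fast was lower by a log2FC of -0.68 with an adjusted p of 0.0107, and 2098 of the 14023 genes were called.

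Gckr, the gene of the regulatory protein, measured 229.9, 222.9 and 315.9 normalized CPM at 0 h, 218.0, 191.9 and 200.0 at 2 h, 389.5, 404.7 and 258.9 at 8 h and 252.5, 330.9 and 336.5 at 12 h, then 330.5, 208.8 and 257.1 at 18 h and 217.5, 225.5 and 231.3 at 22 h. Its daytime libraries overlapped those at 0 h through 0 h replicate 3. The daytime difference was 0.36 (adjusted p = 0.159) and the step from the daytime to the late fast -0.43 ± 0.13 (adjusted p = 0.0697), so that in edgeR the joint test over all times alone called it, while DESeq2 also called that step (adjusted p = 0.0302, with 6.66% of genes called) and pooling 0 and 2 h as fed called the daytime difference (0.52, adjusted p = 0.00912, with 18.0% called). The joint call in edgeR was lost without any 1 of 7 of the 18 libraries, at adjusted p of up to 0.0826, and the joint call of Mlxipl without any 1 of 10, at up to 0.0920, whereas that of Pklr held in all 18 cases.

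Pfkfb3, the gene of the isoenzyme that favours synthesis, had its lowest values in the daytime fast. It measured 53.1, 48.4 and 13.6 normalized CPM at 0 h and 36.1, 55.8 and 37.3 at 2 h, against 8.7, 6.8 and 17.9 at 8 h and 34.3, 22.5 and 17.1 at 12 h. At 18 h it measured 26.7, 46.2 and 46.2 and at 22 h 33.5, 47.2 and 48.6. The daytime range of 6.79 to 34.3 thus lay below most fed and late-fast libraries, with 0 h replicate 3 as the exception among the fed. The daytime difference from 0 h was -1.21 ± 0.40 (adjusted p = 0.0796) and that from the daytime to the late fast 1.32 ± 0.34 (adjusted p = 0.0603), and neither was called by edgeR. DESeq2 called both, at adjusted p of 0.033 and 0.00704 (14.6% and 6.66% of genes called), and without 0 h replicate 3 the daytime difference became -1.61 with an adjusted p of 0.0128 in edgeR.

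The remaining 3 genes were not called in any LIV comparison. Khk measured 392.5 to 590.1 normalized CPM over the 18 libraries, with a joint adjusted p of 0.498. Pfkfb1 measured 58.6 to 88.9 (joint adjusted p = 0.652) and Txnip 31.3 to 65.7 (joint adjusted p = 0.415). None of the 7 genes was called at 2 h (0 of 7, where 0.143% of genes were called and 0 of the 7 had an unadjusted p under 0.05 or a DESeq2 call) or at 18 h (9.97% of genes called, likewise 0 by either count).

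With the lane as a term, which only the 8 h group can separate from time, 0 of the 7 genes were called in the late fast or between the daytime and the late fast, where 21 and 0 genes in all were. In that fit the daytime difference was called for Gckr (0.75, adjusted p = 0.0445) and Mlxipl (0.82, adjusted p = 0.0375), with 4.96% of all genes. Within the lane of the fed libraries, the 2 libraries at 8 h against the 3 at 0 h gave Pklr 0.86 (adjusted p = 0.0159), Mlxipl 0.62 (adjusted p = 0.034) and Gckr 0.63 (adjusted p = 0.057), with 3.90% of all genes called. Within the other lane, 12 h against 18 and 22 h called none of the 7 genes and 1 gene in all. In that fit 4 of the 7 had an unadjusted p under 0.05, as had 1866 of the 13609 genes tested.

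Across the 18 LIV libraries, 21 pairs of the 7 genes were compared on log2(normalized CPM + 1). Gckr and Mlxipl varied together over these libraries (Pearson's r = 0.878, permutation p = 3e-05, Spearman's rho = 0.814, p = 5e-05, adjusted over 21 pairs 0.000315 and 0.000525). Without the 2 libraries furthest from the median of Gckr, r was 0.836. Gckr and Pfkfb3 were opposed (r = -0.880, p = 1e-05, the smallest that 100000 permutations can give, rho = -0.748, p = 0.00053, adjusted 0.00021 and 0.00371, and r = -0.778 without 2 libraries), and so were Mlxipl and Pfkfb3 (r = -0.784, p = 0.00024, rho = -0.856, p = 1e-05, adjusted 0.00168 and 0.00021, and r = -0.750 without 2 libraries). Gckr and Txnip passed by both measures as well (r = -0.572, p = 0.0116, rho = -0.608, p = 0.00843, adjusted 0.0489 and 0.0443, and r = -0.535 without 2 libraries).

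The first 3 relations held between animals of the same time point and in both lanes, by the size of r, for which no p-value was computed. After removal of each time point's mean, r was 0.854 for Gckr and Mlxipl, -0.852 for Gckr and Pfkfb3 and -0.734 for Mlxipl and Pfkfb3. In the lane with 8 libraries the same pairs gave 0.935, -0.963 and -0.939 and in the lane with 10 libraries 0.884, -0.733 and -0.774. Gckr and Txnip gave -0.503 within time points and -0.513 and -0.681 in the lanes. Pklr and Pfkfb3 gave r = -0.656 (p = 0.00285, adjusted 0.0150), but rho = -0.513 with an adjusted p of 0.103. Pklr and Mlxipl, the target and its factor, gave r = 0.487 and rho = 0.507, with adjusted p of 0.125 and 0.103.

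**Figure D2:**
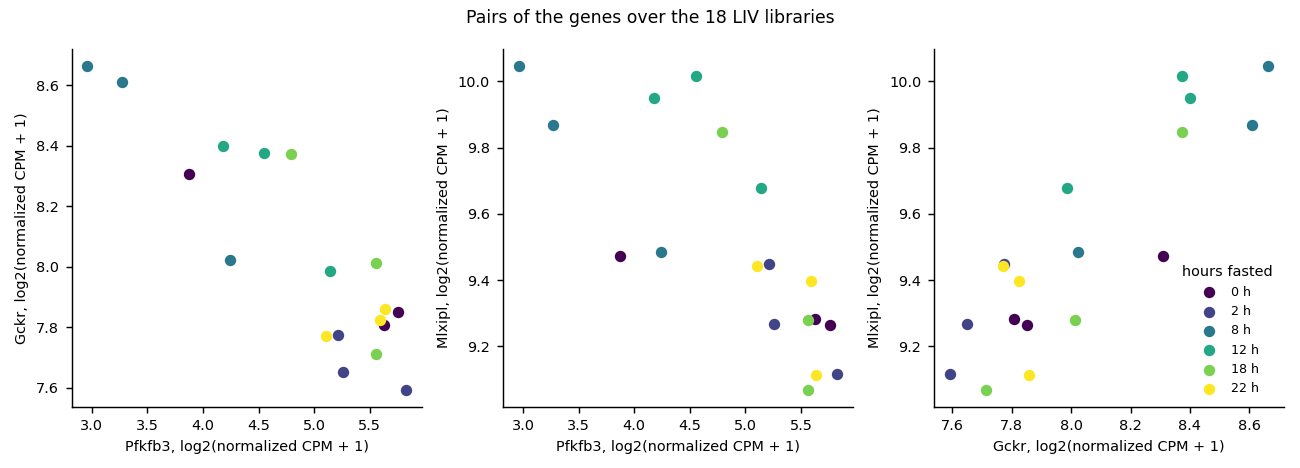
Levels of 3 pairs of the genes in the 18 LIV libraries, both axes as log2(normalized CPM + 1), 1 point per library with the hours fasted shown by colour. Libraries high in Gckr are high in Mlxipl (r = 0.878) and low in Pfkfb3 (r = -0.880), and 8 h replicates 1 and 2 lie at one end of both relations.

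The genes whose LIV profile was most like each member, by Pearson's r over the same 18 libraries, were named by rank alone. For Gckr they were Adra1b (0.973) and A230050P20Rik (0.942), for Mlxipl Krba1 (0.941), Supt20 (0.938) and Map7 (0.936), and for Pfkfb3 Coq10b (0.908), Yrdc (0.888) and Trim24 (0.861). Pklr was most like Elovl6 (0.869), which encodes an elongase of fatty acids, Cyb5r3 (0.862) and Zfp36l1 (0.854). For Khk, Txnip and Pfkfb1 the highest r was lower than for those 4, at 0.828 for Khk (Habp4), 0.823 for Txnip (Tesk1) and 0.797 for Pfkfb1 (Slc25a16).

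The other genes of glucose and fructose use were counted by list, each list drawn up from known roles. The ChREBP target list had 6 of 20 genes lower in the late fast than at 0 h and none higher, where 10.6% of all genes were called in either direction, with a median log2FC of -0.232 where the median over all genes tested was 0.00642. The 6 were Fasn (-1.85, adjusted p = 0.0272) and Acly (-1.24, adjusted p = 9.4e-05), which make fatty acids and their precursor, together with Thrsp, Gpd1, Acacb and Mttp. Acly measured 146.2, 157.1 and 198.8 normalized CPM at 0 h and 55.8, 52.6 and 64.3 at 22 h, a range that does not overlap. In the daytime fast 1 gene of that list rose (Tkt) and 2 fell (Acly and Mttp), against 8.89% of all genes called. From the daytime to the late fast, in step with Pklr, 4 fell (Acacb, Acly, Elovl6 and Gpd1) and none rose, against 2.70% of all genes called, with a median of -0.397 against 0.00415 over all genes.

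Of the fructose and polyol genes, 2 of 9 fell in the late fast against 0 h and none rose, where 10.6% of all genes were called. They were Slc2a2, the glucose and fructose carrier GLUT2 (-0.51, adjusted p = 0.0129), and Tkfc, the triokinase that follows Khk (-0.48, adjusted p = 0.0186). Of the fructose 2,6-bisphosphate list, 1 of 4 genes tested fell against the same 10.6%, namely Fbp1, the gluconeogenic phosphatase that the sugar phosphate inhibits (-0.68, adjusted p = 0.0372), while Pfkfb2 (0.09, adjusted p = 0.775) and Pfkfb4 (-0.30, adjusted p = 0.680) did not pass.

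Among the Mondo and Mlx factors, Mlxip, which encodes MondoA, the relative of ChREBP, was higher in the late fast (0.68 ± 0.15, adjusted p = 0.0068), and Mlx, the partner of both, was lower (-0.36 ± 0.11, adjusted p = 0.0423). Mlxip measured 10.5, 11.3 and 12.4 normalized CPM at 0 h, 20.2, 20.1 and 16.9 at 2 h and 18.2, 20.1 and 19.1 at 22 h, so the levels at 2 h and 22 h were alike. Its means at the times between were lower, at 14.15 at 8 h, 14.63 at 12 h and 17.29 at 18 h. The log2 ratio of Mlxipl to Mlx was higher by 0.38 in the late fast, with an exact two-sided permutation p of 0.0238 (0.0714 adjusted over 3 ratios), and that of Pfkfb3 to Pfkfb1 by 0.37 with an exact p of 0.476. The smallest p that 6 against 3 libraries allow is 0.0119.

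None of the 5 hexokinase genes tested was called in the late fast, and G6pc, the phosphatase that releases glucose, was not either (-0.16, adjusted p = 0.820), with 304.3, 312.9 and 85.27 normalized CPM at 0 h, where replicate 3 was low, and 132.5 to 291.9 in the late fast. Of the glycolytic list, Gapdh and Eno3 rose and Aldoc, Tpi1 and Pgam1 fell of 15 genes tested, which is 5 of 15 against 10.6% of all genes called. Of the alpha-arrestin list, to which Txnip belongs, Arrdc1 rose (0.97, adjusted p = 0.0109), 1 of 7 tested, and Arrdc4 did not pass (0.17, adjusted p = 0.667). Both this count and that of the next list are near the 10.6% of all genes called. Of the insulin and SREBP1c list, 1 of 8 fell, which was Insig1 (-1.28, adjusted p = 6.7e-04), and Srebf1 did not pass (-0.89, adjusted p = 0.0875).

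The second question was where these genes are expressed. Gckr, Pklr, Mlxipl and Khk had their highest mean level in LIV and Pfkfb1, Pfkfb3 and Txnip in pgWAT, with TMM within each organ. Gckr averaged 268 normalized CPM in LIV and 0.947 in STM, the next organ by the mean, where it was 0.338 without 12 h replicate 2, below the 0.663 of CBL. Pklr averaged 219 in LIV and 20.95 in STM, a ratio of 10.4. Khk averaged 480 in LIV and 27.5 in pgWAT, and lay between 8.91 and 20.8 in the other organs. Mlxipl averaged 742 in LIV, 265 in iBAT, 86.7 in pgWAT, 65.7 in psWAT, 5.10 in STM and 1.28 to 2.37 in the nervous system. For these 4 genes the step from LIV to the next organ passed an exact sign-flip permutation test over the animals, with adjusted p of 1.4e-04 or below over the 56 steps tested, and LIV was the higher organ in every animal for Gckr, Pklr and Khk and in 16 of 17 for Mlxipl.

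The other 3 genes had fat depots first. Pfkfb1 averaged 93.3 in pgWAT, 74.8 in LIV, 68.9 in iBAT and 52.3 in psWAT, neighbours that did not differ beyond their spread (adjusted p of 0.423, 0.125 and 0.0900), and stayed below 2 elsewhere. Pfkfb3 averaged 553 in pgWAT, 442 in iBAT, 355 in psWAT, 97.7 in BST, 40.2 in CBL and 33.3 in LIV. Its step from CBL to LIV did not pass (adjusted p = 0.117), with CBL higher in 10 of 18 animals. Txnip averaged 1124 in pgWAT, 869 in iBAT, 817 in psWAT and 396 in STM, and LIV followed STM at 40.96, a step that all 17 animals shared. With 1 TMM scaling over all organs in place of one per organ, the first organ was LIV for 5 genes, Pfkfb1 among them, and iBAT for Pfkfb3 and Txnip. Pfkfb3 then stood at 53.3 in LIV and 32.4 in CBL, the reverse of the order above. Only 1 of the 7 genes kept its full order of organs. The order, that among the fat depots and of Pfkfb1 included, thus depends on the scaling.

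**Figure D3:**
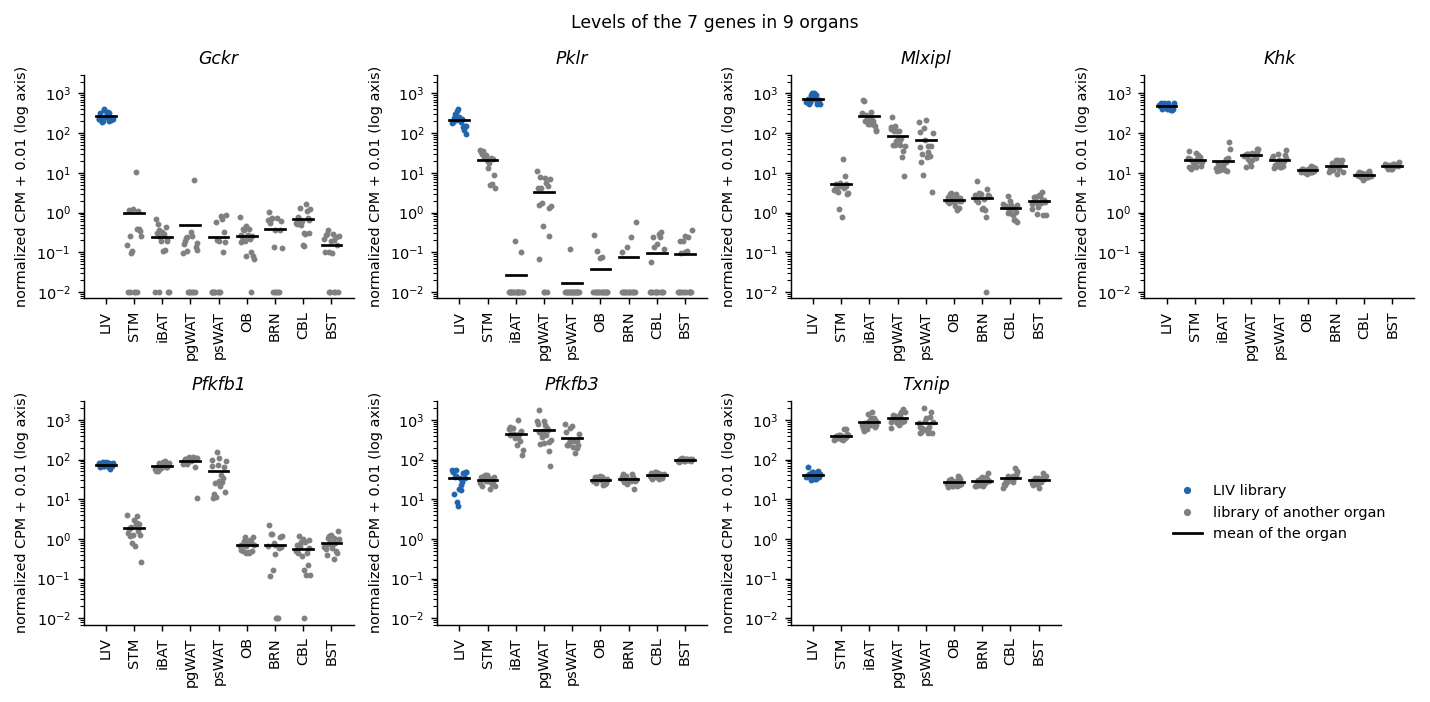
Normalized CPM + 0.01 on a log axis of each of the 7 genes in each of the 9 organs, with 1 point per library and a bar at the mean of the organ. Gckr, Pklr, Mlxipl and Khk peak in LIV (268, 219, 742 and 480), and Pfkfb1, Pfkfb3 and Txnip in pgWAT (93.3, 553 and 1124).

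Where Gckr was seen outside LIV, 2 libraries stood out. It reached 10.7 normalized CPM (78 counts) in STM 12 h replicate 2 and 6.67 (41 counts) in pgWAT 18 h replicate 2. Both were the libraries of their organ with the most albumin RNA, Alb standing at 778 and 3470 CPM, and the part of liver RNA in these values was not tested.

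The third question was whether the same genes change with fasting in other organs. Of the 63 pairs of a gene and an organ, 49 passed the filter on low counts, and Gckr outside LIV passed only in CBL and Pklr only in STM and pgWAT. The largest set of calls was in iBAT. There Mlxipl was lower in the late fast (-1.93 ± 0.25, adjusted p = 3.0e-04), as was Pfkfb3 (-1.14 ± 0.34, adjusted p = 0.0285), and Khk was higher (1.08 ± 0.26, adjusted p = 0.0112), 3 of 5 genes tested against 20.9% of all genes.

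In iBAT, Mlxipl measured 313.4, 666.1 and 653.9 normalized CPM at 0 h, 202.0, 294.2 and 254.0 at 2 h and 166.6, 207.8 and 248.2 at 8 h. It went on with 168.7, 347.8 and 217.8 at 12 h, 203.4, 165.5 and 152.01 at 18 h and 115.2 and 119.2 at 22 h, the third library of 22 h being left out. All 5 late libraries lay below all 3 at 0 h. The daytime fast was called as well (-1.27, adjusted p = 0.0148), the 1 gene of 5 where 0.819% of all genes were called. At 18 h alone it was -1.65 (adjusted p = 0.0192, 0.275% of genes called). Within 1 lane, 18 h replicate 1 with 203.4 stood below the 0 h values of 313.4 and 666.1, and within another, 18 h replicate 3 with 152.01 stood below 653.9.

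The iBAT calls of Khk and Pfkfb3 rested on 22 h. Khk measured 13.1, 10.9 and 18.2 normalized CPM at 0 h, 18.4, 11.3 and 24.02 at 18 h and 59.2 and 39.04 at 22 h. Pfkfb3 measured 581, 670 and 414 at 0 h, 444, 290 and 530 at 18 h and 127 and 176 at 22 h. At 18 h alone neither was called (0.35 and -0.40, adjusted p = 0.794 and 0.840), while 22 h alone called Mlxipl, Khk (1.80) and Pfkfb3 (-1.87) as part of 5960 of the 14529 genes tested. The 2 libraries of 22 h were the only ones of their lanes in iBAT, and their white adipocyte marker sum was 22600 to 28100 CPM against 9270 to 15400 at the earlier times. The part of that in the Khk and Pfkfb3 values was not tested. The call of Khk was lost without 0 h replicate 2 (adjusted p = 0.0806), and that of Pfkfb3 without 0 h replicate 1 or 2, 18 h replicate 2 or 22 h replicate 2.

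In pgWAT, Mlxipl measured 139.96, 126.5 and 258.0 normalized CPM at 0 h, 66.3, 75.3 and 25.5 at 18 h and 34.8, 8.56 and 47.6 at 22 h, groups that do not overlap. The log2FC was -2.09 with an adjusted p of 0.0803, and that of Pfkfb3 -1.91 with 0.0913. edgeR called none of the 6 genes tested in the late fast (3 at an unadjusted p under 0.05), where 0.00609% of all genes were called, and DESeq2 called both (8.14% of genes called). Pfkfb3 measured 906, 801 and 1790 at 0 h and 270, 68.9 and 311 at 22 h. In 22 h replicate 2 the white adipocyte marker sum was 5340 CPM, against 28200 or more in the others, and without that library Mlxipl stood at -1.87 with an adjusted p of 0.0458. All 0 h libraries of pgWAT shared a lane with no late library, so lane and time cannot be told apart in that comparison. The 12 h group spans the lanes of both. Mlxipl measured 72.9 there in the lane of 0 h and 116.2 and 50.4 in the lane of the late fast, and Pfkfb3 265.6 against 756.8 and 414.0.

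In psWAT none of the 5 genes tested was called in the late fast, with 0 at an unadjusted p under 0.05 and 0 by DESeq2, and 0% of all genes were called (0 by edgeR and 12 by DESeq2). Mlxipl ranged from 3.36 to 211 normalized CPM there without order in time. Over the 17 psWAT libraries it followed the white adipocyte marker sum, which ran from 552 to 39800 CPM (r = 0.855, permutation p = 1e-05, rho = 0.855, p = 1e-05, the smallest possible, adjusted over 5 genes 2.5e-05, and r = 0.796 without 2 libraries). Pfkfb1 followed it as well (r = 0.908, p = 1e-05, rho = 0.917, p = 1e-05, adjusted 2.5e-05, and r = 0.899 without 2 libraries), and Txnip, Khk and Pfkfb3 gave r of 0.763, 0.644 and 0.637.

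**Figure D4:**
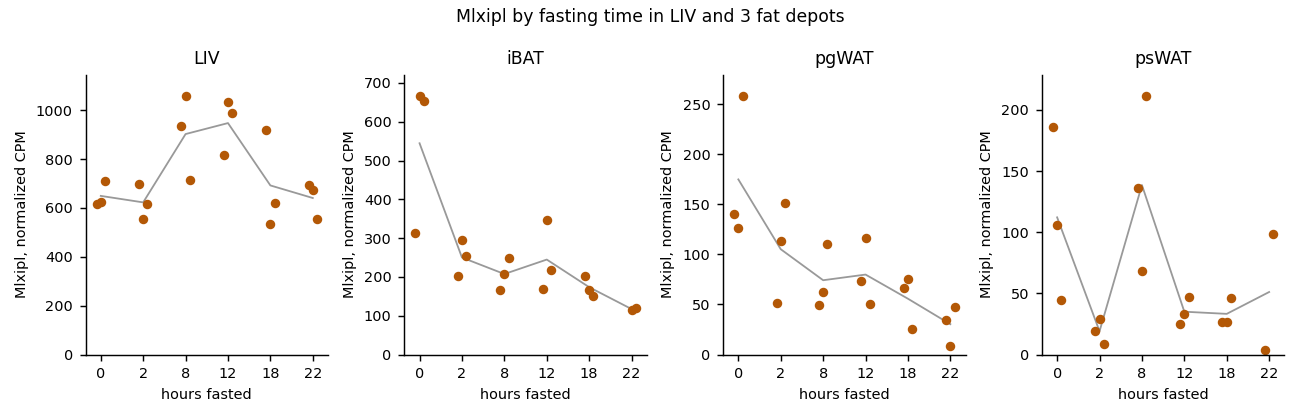
Normalized CPM of Mlxipl (vertical axes, from 0) against hours fasted in LIV, iBAT, pgWAT and psWAT, 1 point per library with a line through the means. The 8 and 12 h libraries lie above all those at 0 h in LIV (0.51 on the log2 scale) and below them in pgWAT (-1.18, not called), while in iBAT (-1.27) 12 h replicate 2 lies above 0 h replicate 1.

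In STM, Pklr measured 36.8, 33.2 and 29.8 normalized CPM at 0 h, 4.86, 24.3 and 5.33 at 18 h and 22.7, 8.76 and 4.09 at 22 h. All 6 late libraries lay below those at 0 h, with a log2FC of -1.52 ± 0.49 and an adjusted p of 0.0526 in edgeR. None of 6 genes was thus called by edgeR (2 at an unadjusted p under 0.05, 15.3% of all genes called), and DESeq2 called Pklr (adjusted p = 0.0123, with 20.6% of genes called). Without 18 h replicate 2 or 22 h replicate 1, the late libraries with the highest values, edgeR gave -2.10 (adjusted p = 0.0031) and -1.95 (adjusted p = 0.0122). The summed level of 6 pancreatic acinar markers in STM moved with it, from 92.6 to 611 CPM at 0 and 2 h to 11.3 to 59.5 in the late fast. The skeletal muscle marker sum stood at 283 to 1880 CPM at 0 h and 2070 to 4040 in the late fast and the neuron marker sum at 16.1 to 27.8 and 41.1 to 71.8, and the part of these 3 lists was not tested. All STM libraries at 0 h were in 1 lane and all late ones in another, so lane and time cannot be told apart there, and at 8 h, which spans both, Pklr measured 27.6 and 21.7 in the first lane and 13.6 in the second.

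In the nervous system, Txnip was the member that stood out by its values in CBL, BST and BRN. In CBL it measured 18.9, 24.8 and 22.8 normalized CPM at 0 h, 26.7, 33.4 and 61.8 at 18 h and 40.6, 47.3 and 51.5 at 22 h, a late fast entirely above 0 h, with a log2FC of 0.97 ± 0.20 and an adjusted p of 0.0517. At 22 h alone it was called (1.07, adjusted p = 0.0262, with 3.96% of genes), and so was the late fast on leaving out any 1 of the 18 h libraries (0.76 to 1.10, adjusted p = 0.0018 to 0.0341). In BST it measured 29.4, 25.998 and 22.5 at 0 h and 33.01 to 45.1 in the late fast (0.53, adjusted p = 0.212), and in BRN 20.98, 22.1 and 23.9 at 0 h and 28.9 to 46.02 in the late fast (0.62, adjusted p = 0.0629), again without overlap. In OB its late fast, at 22.1 to 37.4, overlapped the 20.2 to 30.6 at 0 h (0.21, adjusted p = 0.469). The rise was not particular to the nervous system, with 0.71 in pgWAT (adjusted p = 0.173) and 0.41 in STM (adjusted p = 0.140), neither of them called. All CBL libraries shared 1 lane, and all BST libraries another. The CBL libraries at 0 h were, however, the deepest of that organ, where totals ran from 6487419 to 22071004 counts (median 8449757). Txnip had 381, 547 and 488 counts in CBL at 0 h and 311, 327 and 459 at 22 h. The part of sequencing depth in the CBL values was not tested. In BRN the erythroid marker sum had a median of 91.6 CPM at 0 h and 229 in the late fast, the skeletal muscle marker sum, whose list holds the gene Pvalb that neurons also express, had medians of 78.3 and 202 and the pancreatic acinar marker sum was at most 17.4 at 0 h and at least 24.6 in the late fast, all 3 without overlap, while the neuron marker sum ran from 4100 to 4440 and from 2590 to 4360. Their part in the BRN values was not tested.

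By edgeR no member passed the late-fast test in CBL (0 of 5, with 0.344% of all genes called), BST (0 of 5, with 0.0596%), BRN (0 of 5, with 11.2%) or OB (0 of 5, with 1.95%). In these organs 2, 1, 2 and 1 of the genes had an unadjusted p under 0.05, and DESeq2 called Txnip in CBL, BST and BRN (adjusted p = 0.00303, 0.0226 and 0.0230, with 2.43%, 0.470% and 21.1% of genes called) and none in OB. In OB at 18 h alone, Pfkfb3 was lower (-0.41, adjusted p = 0.0327), measuring 23.1, 24.1 and 23.7 against 28.3, 31.0 and 35.5 at 0 h, as part of 2012 of the 16742 genes tested. The OB libraries at 0 h and at 18 h were in different lanes, so that comparison alone cannot tell lane from time. In the lane of 18 h, Pfkfb3 measured 38.7 in 8 h replicate 3, 29.9 to 37.2 at 12 h and 25.2 to 32.5 at 22 h. The part of lane was not tested. In the daytime fast, edgeR called no member outside LIV and iBAT, nor did DESeq2, which gave no member an adjusted p in OB and 1 in BST, and of all genes tested 0% were called in STM, pgWAT, psWAT, OB and CBL, 8.16% in BRN and 0.00596% in BST. At an unadjusted p under 0.05 stood 1 member in CBL, 2 in pgWAT and 0 in each of the other 5.

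Whether LIV changed otherwise than the other organs was tested as 1 contrast, the late-fast change in LIV minus the mean change in the other 8 organs. edgeR called none of the 5 genes that could be fitted, where 0.683% of all genes were called. Mlxipl had a difference of 1.01 ± 0.47 (adjusted p = 0.424) and Khk of -0.46 ± 0.22 (adjusted p = 0.475), the 2 genes with an unadjusted p under 0.05. That fit had no term for the animal, although the organs came from the same animals. With the animal as a term in edgeR none was called either, and Pfkfb3 (0.72, adjusted p = 0.443) also had an unadjusted p under 0.05. With limma voom and a weight for each organ, both were called (Mlxipl 1.13 ± 0.27, adjusted p = 0.0065, and Khk -0.49 ± 0.14, adjusted p = 0.0223), with 3.80% of all genes. Gckr and Pklr could not be estimated in the edgeR fit, since groups of libraries in other organs held 0 counts of them. The plot of the late-fast change by organ sets the values side by side.

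**Figure D5:**
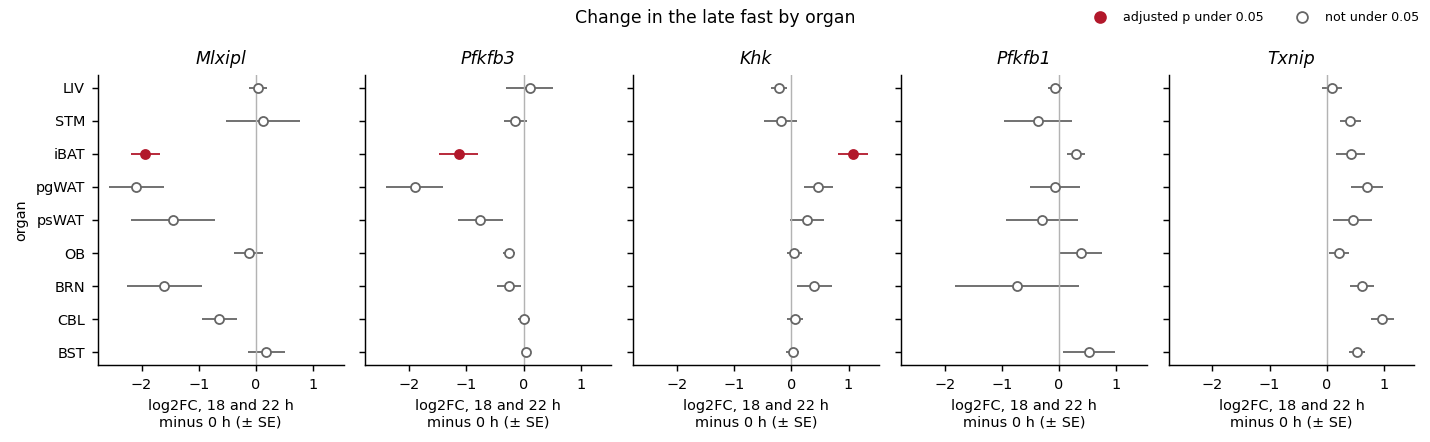
Late-fast change (log2FC against 0 h, with the standard error) of Mlxipl, Khk, Pfkfb1, Pfkfb3 and Txnip in each organ where the gene was tested, filled where the adjusted p is under 0.05. Mlxipl lies near 0 in LIV (0.04, or 0.51 and not called with lane as a term) and at -1.93 in iBAT, -2.09 in pgWAT and -1.45 in psWAT. Txnip lies above 0 in CBL (0.97), BRN (0.62) and BST (0.53), as it does in pgWAT (0.71), psWAT (0.45), iBAT (0.42) and STM (0.41). In OB it lies at 0.21, and none of these Txnip values is filled.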

How the data were processed

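Raw gene counts were deposited by the authors, who, per the labels and the methods of the study, made stranded mRNA libraries, aligned reads to GRCm38.p5 with TopHat2 2.1.1 and counted uniquely placed reads with HTSeq 0.9.1. The strand setting of the counting is not given in the sources used here. Of the libraries, the 5 that the study excluded were left out (STM 12 h replicate 3, BRN 8 h replicate 3 and 18 h replicate 1, iBAT 22 h replicate 1 and psWAT 22 h replicate 2), and 157 were used. They held 3045845 to 27801717 counts each, which sets the floor of 3 counts that limits low values and covers counting error only.

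Each organ was fitted alone with edgeR 4.0.16 (TMM, robust quasi-likelihood, 6 time groups) in R 4.3.3, on genes at or above the CPM of 10 counts in a library of median size in at least 3 libraries, with Benjamini-Hochberg adjustment over all genes tested and calls at an adjusted p under 0.05. Contrasts were the mean of 18 and 22 h (late fast) or of 8 and 12 h (daytime fast) against 0 h and against each other. DESeq2 1.42.0, limma 3.58.1 (voom), RLE factors, no filter, a fold threshold, the replicate number or lane as a term, other reference libraries and leaving out single libraries were the alternatives. Levels are CPM over the TMM library size. Ratios and organ order were tested by exact permutation and correlations by permutation with scipy 1.17.1 in Python 3.11.15. Scripts were tested on simulated data. Named were the 7 genes, up to 4 called genes of each list with the largest change, 10 genes fixed by name and the 3 genes most like each of the 7, of which a few are not reported here. Acacb, Mttp, Gapdh, Tkt, Elovl6, Pck1 and the daytime calls fall outside that rule and were named after their values were seen. The 7 genes, the lists and the tests were chosen with earlier results of these data known. Marker lists were summed to check each organ.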

Additional observations from a re-analysis of the deposited data

Results flagged for a closer look

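In the daytime fast the Mlxipl libraries lay on opposite sides of 0 h in LIV and in pgWAT. The log2FC against 0 h was 0.51 in LIV, where all 6 daytime libraries lay above all 3 at 0 h, and -1.18 in pgWAT, where all 6 lay below all 3 but edgeR did not call the gene (adjusted p = 0.599, with 0 genes called in all). The difference between the organs was not tested.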

How the results depend on the processing

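The LIV results moved with lane, the fed reference, the fold rule and single libraries, and the cause was not tested. In the late fast 10.6% of LIV genes tested (1484) were called, against 0.150% with lane as a term, 6.01% with the late and 0 h libraries alone and 1.66% with a log2FC over 1 required. Of the 7 genes, 0 were called there, 1 without a filter on low counts and 1 with 0 and 2 h together as fed (Pklr both times). With lane as a term the late-fast log2FC was 0.55 for Gckr, 0.51 for Mlxipl, 0.029 for Pklr, -0.35 for Pfkfb1, -1.12 for Pfkfb3 and -0.39 for Txnip, and with 0 and 2 h as fed it was 0.10 for Gckr and -0.11 for Txnip.

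In the daytime fast the share called (8.89%) became 4.96% with lane as a term, 17.98% with 0 and 2 h as fed, 3.90% within the lane of the fed libraries and 0.813% with a log2FC over 1. Of the 7 genes, where 1 was called, 2 were with DESeq2, 2 without a filter, 2 with lane as a term, 2 within that lane, 3 with 0 and 2 h as fed and 0 with a log2FC over 1. With lane as a term, with 0 and 2 h as fed and within that lane, the log2FC was 0.026, 0.021 and 0.090 for Khk, -0.18, -0.018 and -0.15 for Pfkfb1 and -0.28, -0.15 and -0.12 for Txnip. From the daytime to the late fast (2.70%, 378 genes) it was 6.66% with DESeq2, 5.48% without a filter (1402 genes), 0% with lane as a term, 0.00735% with 12 h alone in a fit of the libraries of its lane and 0.492% with a log2FC over 1, and of the 7 genes (2 called) 4 were called with DESeq2, 4 without a filter and 0 under the other 3. Txnip stood at -0.11 with lane as a term. The joint test (16.0%, 2244 genes, 3 of the 7) called 25.57% with DESeq2, 15.84% without a filter (4055 genes) and 2.097%, with 1 of the 7, with lane as a term. DESeq2 called 1.26% at 2 h, 3.963% at 8 h, with 2 of the 7, and 7.02% at 22 h.

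Replicate numbers did not pair the libraries: the mean correlation of same-numbered deviations was -0.03 in LIV and 0.15 in iBAT, the highest of the organs. With the replicate number as a block, 0 of the 7 genes were called in the daytime fast (Mlxipl 0.51), 0 at 12 h (0.55), 1 from the daytime to the late fast, and 1 each in the late fast of STM (Pklr, -1.65) and CBL (Txnip, 0.95), and 0.235% of genes were called at 8 h. The joint test in LIV then called 2 of the 7, Pklr and Mlxipl, and the call of Gckr was lost. In the other organs' late fast, DESeq2 called 1 of the 7 genes in STM, BRN, CBL and BST and 2 in pgWAT, omitting the filter added 1 in CBL and 1 in BST and left 2 in iBAT, where Pfkfb3 was lost, and 18 h alone left 1 in iBAT and gave 1 in OB. Among all genes, DESeq2 called 1191 in pgWAT (edgeR 1), and BRN gave 0 with the 5 excluded libraries kept in (1883 without them). The contrast of LIV with the other organs called 3.80% of genes and 2 of the 7 with limma voom and 0.122% with the 5 excluded libraries kept in.

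Leaving out 1 library at a time, the share of LIV genes called ranged from 4.16% to 11.53% (late), 1.36% to 10.96% (daytime), 0.115% to 9.93% (late against daytime) and 9.12% to 20.69% (joint), and calls among the 7 from 0 to 1, 0 to 2, 0 to 4 and 1 to 4. Late-fast log2FC ranged from -0.17 to 0.11 for Gckr, -0.10 to 0.11 for Mlxipl and -0.30 to 0.41 for Pfkfb3. Daytime log2FC ranged from -0.058 to 0.068 for Pfkfb1 and -0.058 to 0.11 for Txnip, and Txnip from -0.027 to 0.15 between the fasts. The log2 ratio of Pfkfb3 to Pfkfb1 ranged from -0.18 to 0.69. Outside LIV, calls among the 7 ranged from 0 to 2 in STM, 1 to 3 in iBAT and 0 to 1 in pgWAT, BRN and CBL. Mlxipl in BRN, near the floor, moved from -1.60 to -4.04 without 18 h replicate 3. RLE factors in place of TMM changed no call of the 7 in LIV.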
